A study of Mus musculus with 2 samples.

Results

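The respiratory chain and ATP synthase of mitochondria were measured here as 79 nuclear genes for subunits of complexes I to V, of 12393 named genes on the array. They were chosen by symbol alone, as genes with a probe set of a single symbol that starts with Ndufa, Ndufb, Ndufc, Ndufs or Ndufv and a digit, with Uqcr, with Cox4 to Cox8 and a letter, or with Atp5, and as the genes Sdha to Sdhd and Cyc1. They make up 33 genes of complex I, 4 of complex II, 9 of complex III, 16 of complex IV and 17 of complex V, on 148 probe sets. The rule itself uses symbols and no signal. A further 7 probe sets that carry the symbol of a subunit together with a second symbol were not used.

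The RNA came from uterine stromal cells, the connective tissue cells beneath the uterine epithelium, freed by enzyme from the uterine horns of mice on day 5 of pregnancy, where day 1 is the day of the vaginal plug. Cells of 3 animals were pooled for each of 2 Mouse Genome 430A 2.0 arrays, an Affymetrix chip that reads each gene with 1 or more sets of short probes. The control array is titled as Hif1 floxed and its genotype is given as Hif2 alpha-intact. The second array is titled as a Hif1 conditional knockout and its genotype is given as Hif2 alpha-null, while the breeding text speaks of Hif1 floxed mice crossed with PRcre mice to remove Rac1 in the uterus, so it is called knockout-labelled throughout. PRcre mice make Cre recombinase under the progesterone receptor promoter, which is active in several uterine cell types and not in stroma alone. Each group was 1 array of a pool, so no difference could be tested against a spread between replicates, and every value describes these 2 arrays.

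Complexes I to IV pass electrons from NADH and succinate to oxygen through ubiquinone and cytochrome c, and complexes I, III and IV pump protons across the inner mitochondrial membrane as they do so. ATP synthase, complex V, lets the protons back and makes ATP. Most subunits are encoded in the nucleus, and a small set of the membrane core is encoded in mitochondrial DNA. HIF proteins are known in other cells to hold back mitochondrial respiration when oxygen is low, partly through Pdk1, the kinase that closes pyruvate dehydrogenase, and through an exchange of cytochrome oxidase isoforms.

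The deposited values are MAS5 signals, which are probe set brightnesses on a linear scale. A floor was set at a signal of 19.7, the 40th percentile of both arrays, and the log2 ratio is the knockout-labelled array minus the control array after the floor. A gene was represented by its probe set of highest mean log2 signal, called the brightest. At that probe set 76 of the 79 subunits were above the floor on at least 1 array and 72 on both. Signals are given below as a pair, control first.

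Of the genes that the labels name as deleted, Hif1a was higher on the knockout-labelled array at all 3 measured probe sets (721 and 1544 at the brightest, log2 ratio 1.10, then 1.38 and 0.52). Epas1, which encodes HIF2 alpha, had 59.4 and 78.1 (0.39), and Rac1 had a log2 ratio of -0.46 at its brightest probe set and a lower one at the next. None of these values checks the label, because the place of the probes relative to a deleted part was not analysed here. Among stroma markers, Dcn, the matrix proteoglycan decorin, had 4642 and 7261, and Hoxa10, a homeobox factor of the uterus, had 1611 and 1104. Col3a1, a collagen chain, had 7439 and 10987, and Hoxa11 had 389 and 108 (-1.85). Some others of that list were dim. Pgr had 52.6 and 29.7, Hand2 was near the floor (21.2 and 22.1), and Esr1 was under it on the control array (18.4 and 19.8). Over all genes 13.0% were lower and 6.21% higher by 2-fold or more, beside which the marker lists below are given. Endothelial markers were mostly lower on the knockout-labelled array (6 of 10 lower by 2-fold or more, none higher by 2-fold or more, summed signal 3533 and 1812), as were 6 of 10 myeloid markers, with 2 higher by 2-fold or more (4038 and 3540), and 4 of 10 markers of smooth muscle and pericytes, with none higher by 2-fold or more (13185 and 13962). Among 10 epithelial markers compared, 2 were lower by 2-fold or more and 1 higher by 2-fold or more (2357 and 1954), and 13 stromal markers held 1 lower by 2-fold or more and none higher (27200 and 36340). Lymphocyte and NK cell markers held 3 of 6 lower and 1 higher by that size (1265 and 1120), and both erythrocyte markers present, Hba-a1 and Alas2, were at the floor. These counts and sums rest on the brightest probe set of each marker. Further probe sets had the other sign in some markers, though not in others such as Krt8. C1qb had log2 ratios of 1.58, -2.68 and 0.54, brightest first, Eng 0.83 and -1.85, and Myh11 -0.78 and 1.21. For b-actin the 3' over 5' signal ratio, which rises as RNA or its copies become shorter, was 2.27 and 16.05, control first, and for Gapdh 1.49 and 7.25. The part of cell makeup and of RNA length in the values below was not tested, and fewer cells of a type cannot be told apart from less RNA per cell in such pools.

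Most subunits differed by less than 2-fold at their brightest probe set, and their direction was mixed. Of 76 subunits compared, 13 (17.1%) were lower by 2-fold or more on the knockout-labelled array, where 13.0% of all 8593 genes were, and 3 (3.95%) were higher by 2-fold or more, where 6.21% of all genes were. The other 60 lay between. By any amount 33 were lower and 43 higher, with a median log2 ratio of 0.27 beside -0.10 for all genes. That median turned to -0.17 when the median over the probe sets of each gene was taken, as did that of all genes (-0.17), and to -0.07 when the trend of ratio with signal was removed (all genes -0.01), so the list has no settled direction. At 2-fold each share lay near that of all genes. At 3-fold 9 subunits were lower, where 3.84% of all genes were.

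**Figure D1:**
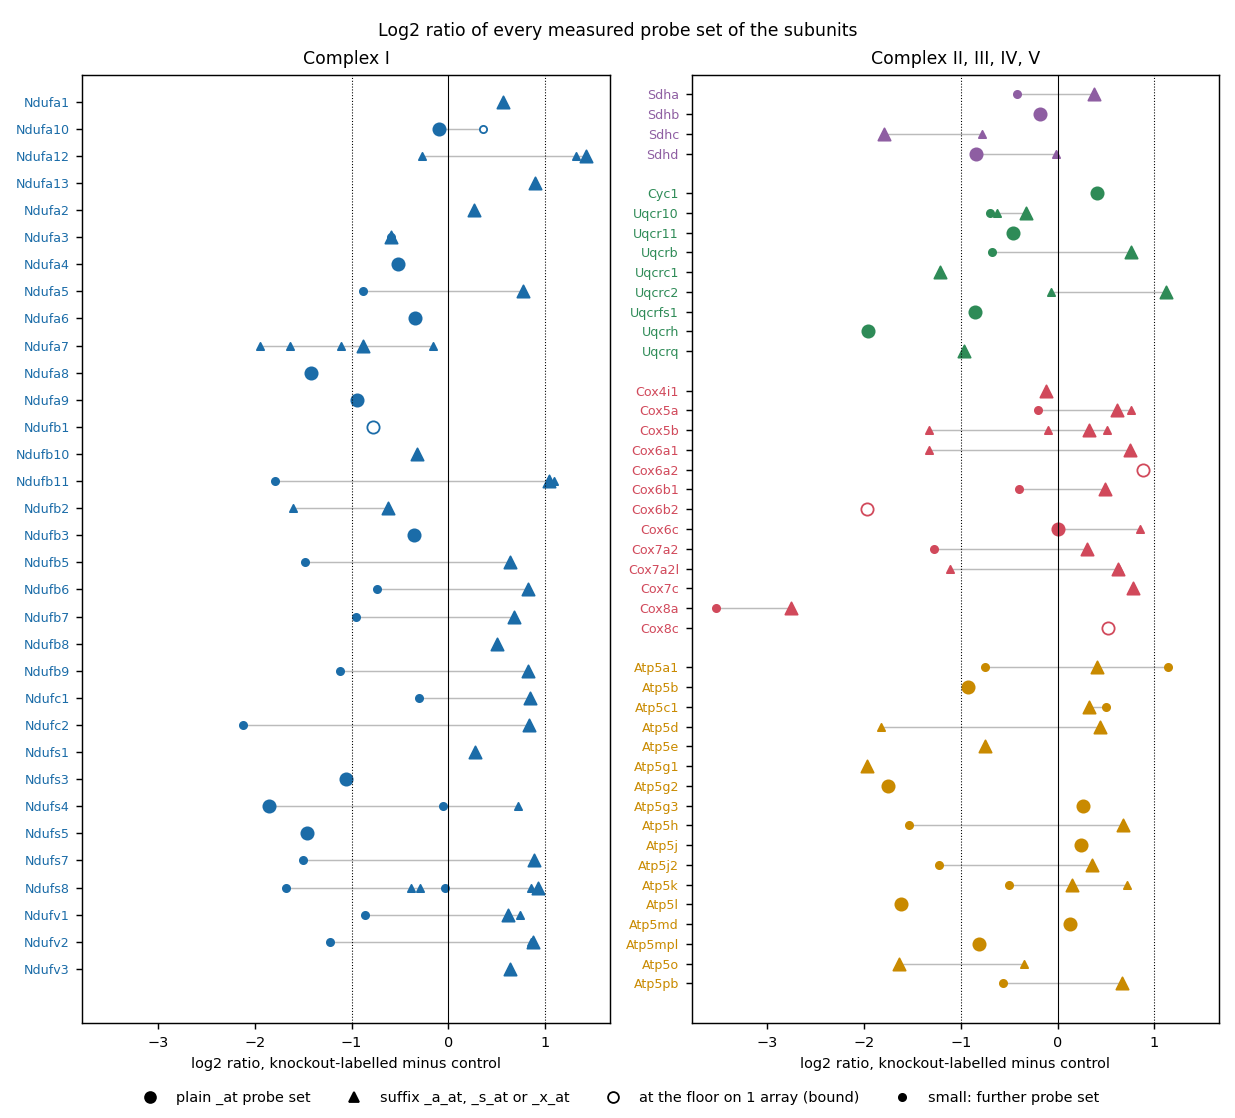
Log2 ratio (horizontal axis, knockout-labelled minus control) of the 135 subunit probe sets above the floor on at least 1 array, 1 gene per line and coloured by complex; large marks are the brightest probe set of a gene, circles have the plain suffix _at and triangles _a_at, _s_at or _x_at. Grey lines join the probe sets of a gene, many of which cross 0, and dotted lines mark 2-fold.

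The direction of a subunit depended on which of its probe sets was read. Of 40 subunits with several probe sets above the floor, 30 (75.0%) had probe sets on both sides of 0, where 54.2% of 3133 such genes over the whole array did. Of the 40, 8 (20%) were lower at every measured probe set, namely Ndufa3, Ndufa7, Ndufb2, Sdhc, Sdhd, Uqcr10, Cox8a and Atp5o. Another 2 (5%) were higher at every one, Atp5c1 and Cox6c, the latter by a log2 ratio of 0.00 at its brightest. Over the whole array 24.3% of such genes were lower at every one and 21.4% higher at every one. Cox8a alone (2.5% of the 40) was lower by 2-fold or more at all of its measured probe sets. No subunit was higher by that size at all of them. Over the whole array the shares were 2.01% lower and 1.82% higher. The remaining 36 subunits had 1 measured probe set, of which 23 were lower and 13 higher. Over the whole array 3580 of 5460 such genes were lower and 1880 higher.

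Affymetrix marks in the suffix of a probe set what it can bind. A plain _at probe set is meant for a single transcript, _a_at for several transcripts of the same gene, _s_at for transcripts that can come from different genes, and _x_at holds some probes that match other sequences. In 29 subunit genes both a plain _at probe set and one of another suffix were above the floor on both arrays. Only the brightest of each kind was compared. The log2 ratio of the plain _at probe set was the smaller in 28 of 29 (96.6%), with a median of -0.86 against 0.66 for the other kind. Over all 1370 genes with both kinds it was the smaller in 68.4%, with medians of -0.22 and 0.39. Among the 564 of these that lay in the brightest 20% of genes and were not subunits, it was the smaller in 75.7%. Atp5c1 was the exception among the subunits. Set against _a_at probe sets alone, the plain _at probe set had the smaller ratio in 18 of 18 subunit genes, and in 57.5% of 702 genes over the array.

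This split can be followed in single genes. Ndufc2, an accessory subunit of the membrane arm of complex I, had signals of 1665 and 2976 at its _s_at probe set (log2 ratio 0.84) and of 973 and 223 at its plain _at probe set (-2.12). For Ndufb11, another membrane arm subunit, signals were 2056 and 4238 at an _a_at probe set (1.04), 2023 and 4305 at an _x_at probe set (1.09), and 1136 and 329 at the plain _at one (-1.79). The gene read by itself is thus higher by 2-fold or more or lower by 2-fold or more according to the probe set. In 26 of the 29 genes the plain _at probe set also had the lower mean signal. In the other 3, Cox6c, Sdhd and Ndufs4, it had the higher mean signal and still the smaller log2 ratio (0.00 against 0.85, -0.85 against -0.02 and -1.85 against 0.72). Probe sets of the other suffixes could also differ within a gene. Atp5d had log2 ratios of 0.43 and -1.82, both at _s_at probe sets. The positions of the probes in the transcripts were not analysed here.

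**Figure D2:**
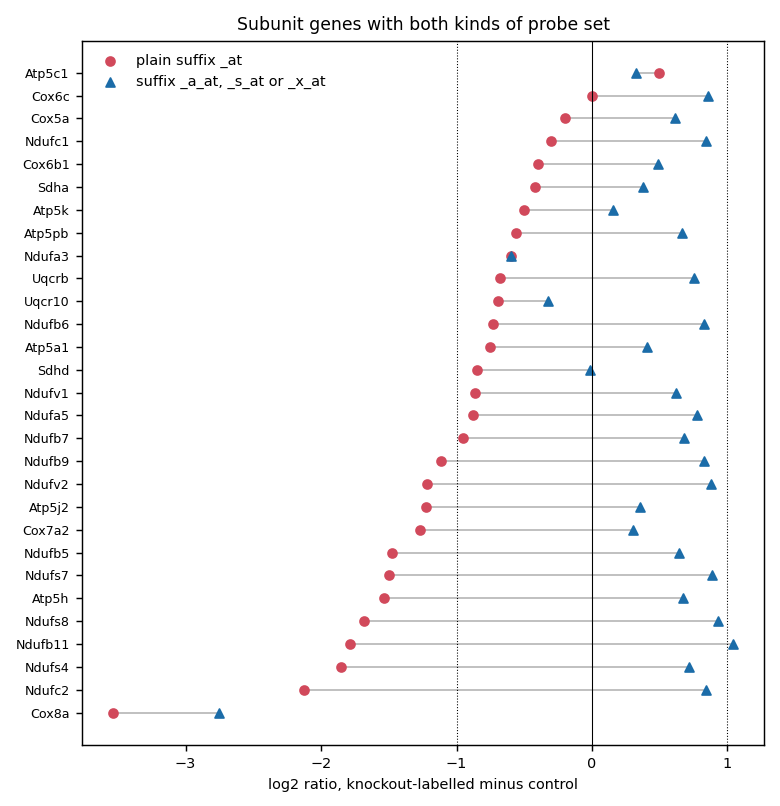
Log2 ratio (horizontal axis, knockout-labelled minus control) in the 29 subunit genes with both kinds of probe set above the floor on both arrays, ordered by the plain _at value; circles are the brightest plain _at probe set and triangles the brightest of any other suffix. The circle lies left of the triangle in 28 of 29 genes, by more than 2 log2 units in Ndufv2, Ndufs7, Atp5h, Ndufb5, Ndufs8, Ndufb11, Ndufs4 and Ndufc2.

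Counted by probe set and not by gene, 32 of 135 measured subunit probe sets (23.7%) were lower by 2-fold or more, where 13.9% of all 13284 were, and 6 (4.44%) higher by 2-fold or more, where 6.84% of all were. Plain _at probe sets of the subunits had a median log2 ratio of -0.75. Of these 57, 19 (33.3%) were lower by 2-fold or more, where 13.7% of all plain _at probe sets were. By that size 1 (1.75%) was higher, where 6.89% of all plain _at probe sets were. Subunit probe sets of suffix _a_at had a median of 0.61, _s_at of 0.35 and _x_at of 0.07. Over all genes the medians of these kinds were -0.15, -0.24, 0.05 and 0.48. The _a_at probe sets of subunits thus had a positive median where those of the whole array had a negative one. Of 78 subunit probe sets of suffix _a_at, _s_at or _x_at, 31 (39.7%) were lower by any amount. By 2-fold or more 13 (16.7%) were lower. Over all genes the shares for these suffixes were 51.5% and 14.2%.

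Complex I takes electrons from NADH through a peripheral arm that holds the flavin and iron-sulphur clusters. Of its core subunits in that arm 6 were compared. Ndufs3, which had only 1 measured probe set, was lower by 2-fold or more, with signals of 669.7 and 321 (log2 ratio -1.06). The flavin subunit Ndufv1 had signals of 828 and 1270 (0.62), the iron-sulphur subunits Ndufv2, Ndufs7 and Ndufs8 had log2 ratios of 0.88, 0.89 and 0.93, and Ndufs1, the largest of the arm, had 285 and 345 (0.28). Plain _at probe sets of 4 of these gave -0.86 for Ndufv1, -1.22 for Ndufv2, -1.50 for Ndufs7 and -1.68 for Ndufs8. The further probe sets of Ndufs8 gave 0.85 (_x_at), -0.39 (_a_at), -0.29 (_x_at) and -0.04 (another plain _at). Only Ndufs3 and Ndufs1 were free of such a conflict, because each rested on a single probe set.

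Among 27 accessory subunits of complex I, 3 (11.1%) were lower and 2 (7.41%) higher by 2-fold or more, beside 13.0% and 6.21% of all genes. Ndufs4, a subunit of the NADH-binding part whose loss causes mitochondrial disease, had the lowest ratio, with signals of 301 and 83.4 (-1.85), and its 2 further probe sets gave 0.72 and -0.06. The intermembrane-space subunits Ndufs5 (485 and 177, log2 ratio -1.45) and Ndufa8 (677 and 253, -1.42) followed, with 1 measured probe set each. Ndufa12 had the highest ratio of all subunits, with signals of 1258 and 3372 at its brightest, an _x_at probe set (1.42), 1.32 at a second _x_at and -0.27 at an _s_at probe set. Ndufb11 was the other one above 2-fold. Ndufa7 was lower at all 5 of its probe sets (-0.88 at the brightest, then -1.11, -1.63, -1.95 and -0.16), which made it the accessory subunit with the most probe sets in 1 direction.

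The remaining accessory subunits of complex I lay under 2-fold at their brightest probe set. Those with a single probe set were Ndufa1 (2502 and 3692, log2 ratio 0.56), Ndufa2 (0.27), Ndufa6 (-0.34), Ndufa9 (-0.95), Ndufa13 (0.90), Ndufb3 (-0.36), Ndufb8 (0.50), Ndufb10 (-0.33) and Ndufv3 (0.64). Ndufb1 was measured on the control array only (33.9 against 7.78) and was at least 1.72-fold lower. Ndufa3 was lower at both probe sets by almost the same amount (-0.60 and -0.60) and Ndufb2 at both as well (-0.62 and -1.60). Opposite signs were found in Ndufa5 (0.77 and -0.88), Ndufb5 (0.64 and -1.48), Ndufb6 (0.83 and -0.73), Ndufb7 (0.68 and -0.95), Ndufb9 (0.83 and -1.12), Ndufc1 (0.84 and -0.30) and Ndufa10 (-0.10, and at least 0.36 at a probe set that was at the floor on the control array). In each of these but Ndufa10 the plain _at probe set gave the negative value and an _a_at probe set the positive one. Both probe sets of Ndufa10 were plain _at. Of its 33 subunits, complex I had 4 (12.1%) lower and 2 (6.06%) higher by 2-fold or more, beside 13.0% and 6.21% of all genes. Its median was 0.50 at the brightest probe sets and -0.95 over plain _at probe sets alone.

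Ndufa4, named as a complex I subunit and now placed in cytochrome c oxidase, had signals of 1415 and 985 at its single probe set (-0.52). It was counted with complex I by its symbol. Its paralogue Ndufa4l2, a known target of HIF, was not analysed here.

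Complex II, succinate dehydrogenase, links the citrate cycle to the chain and is encoded wholly in the nucleus. Sdhc, a membrane anchor, was lower by 2-fold or more, with signals of 316 and 91.1 (-1.80), and its _x_at probe set gave -0.78. The other anchor, Sdhd, was lower at both probe sets, with signals of 483 and 268 at the brightest (-0.85) and a log2 ratio of -0.02 at the next. The catalytic flavoprotein Sdha had signals of 617 and 802 (0.38) at an _s_at probe set and 749 and 560 (-0.42) at the plain _at one, and the iron-sulphur subunit Sdhb had 898 and 793 (-0.18). The anchors were therefore lower at all 4 of their probe sets, whereas the catalytic subunits lay between -0.42 and 0.38.

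Complex III passes electrons from ubiquinol to cytochrome c. Uqcrh, the hinge protein that binds cytochrome c1, had signals of 1347 and 347 (-1.96), and the core protein Uqcrc1 had 558 and 239 (-1.22), each at a single measured probe set. Its partner core protein Uqcrc2 had 1315 and 2847 (1.11) at the brightest probe set and 1022 and 977 (-0.06) at the other, both of suffix _a_at. Of the 2 subunits with redox centres in this list, cytochrome c1, Cyc1, had signals of 849 and 1122 (0.40) and the Rieske protein Uqcrfs1 had 664 and 367 (-0.85). Among the small subunits, Uqcrq (567 and 291, -0.96), Uqcr11 (-0.47) and Uqcr10 (-0.33, with -0.62 and -0.70 at further probe sets) were lower. Uqcrb, which helps to form the ubiquinone site, had 3632 and 6118 (0.75) at the brightest and 667 and 416 (-0.68) at the plain _at probe set. In all, 6 of 9 (66.7%) were lower by any amount, beside 55.3% of all genes, and the median was -0.47.

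Complex IV, cytochrome c oxidase, hands the electrons to oxygen. Cox8a, a small membrane subunit found in most tissues, had the lowest ratio of all subunits. Its signals were 898 and 133 at an _x_at probe set (-2.76) and 1041 and 89.8 at the plain _at probe set (-3.53), and 1 further probe set was at the floor on both arrays. No other complex IV subunit measured on both arrays reached 2-fold at its brightest probe set. Cox6a1 had signals of 4188 and 7006 there (0.74) and 1664 and 664 at its other probe set (-1.33). Cox6b1 had 3011 and 4226 (0.49), and -0.40 at the other. Cox5a had 2701 and 4137 (0.61), with 0.76 and -0.20 at further probe sets. Each of these was thus higher at its brightest probe set and lower at another. The same held for Cox5b with 2775 and 3472 (0.32, then 0.51, -0.10 and -1.33), for Cox7a2 with 3002 and 3699 (0.30 and -1.27), and for Cox7a2l, a factor that joins complexes III and IV into supercomplexes, with 1476 and 2278 (0.63, then 0.64 and -1.11). Cox6c had nearly the same signal on both arrays (3158 and 3159, log2 ratio 0.00) and a log2 ratio of 0.85 at its second probe set. Cox7c was dim at the only probe set above the floor (37.6 and 64.7, log2 ratio 0.78).

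Of the isoforms of complex IV that are known from other tissues, 3 were under the floor on both arrays and 3 were above it on 1 array. Cox4i1, the common form of subunit 4, had signals of 2530 and 2323 (-0.12), whereas Cox4i2, the lung form that HIF induces in other cells, had 7.75 and 9.01, under the floor on both arrays. The muscle isoforms Cox7a1 (10.4 and 13.3) and Cox8b (12.9 and 3.50) were under it as well, and no fold is given for them. Cox6a2, also of muscle, was above the floor only on the knockout-labelled array (15.2 and 36.5, at least 1.85-fold higher), as was Cox8c of testis (17.1 and 28.2, at least 1.43-fold higher). The testis isoform Cox6b2 was above it only on the control array (77.1 and 10.2) and was at least 3.91-fold lower. Of the 5 other markers of striated muscle looked at, namely Ckm, Myh2, Actn2, Cox7a1 and Cox8b, all were at the floor on both arrays. A signal under the floor does not show that the gene was off.

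**Figure D3:**
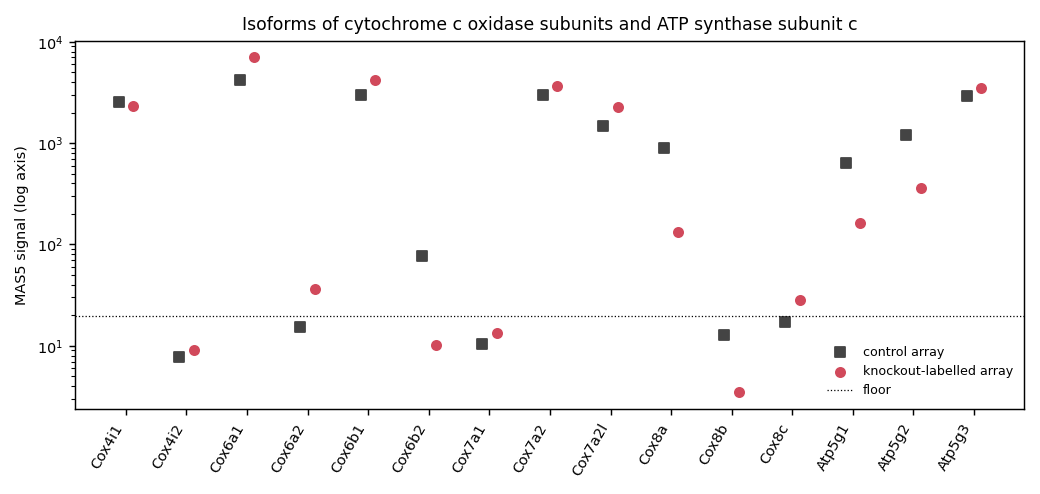
MAS5 signal (vertical log axis) on the control array (squares) and the knockout-labelled array (circles) at the brightest probe set of the isoforms of cytochrome c oxidase subunits and of the 3 genes for ATP synthase subunit c; the dotted line is the floor at 19.7. Cox4i2, Cox7a1 and Cox8b lie under the floor on both arrays, and Cox8a, Atp5g1 and Atp5g2 are the bright probe sets with the widest gap.

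ATP synthase has a catalytic head, F1, a ring of c subunits in the membrane and a stalk that holds the head still. The 3 genes Atp5g1, Atp5g2 and Atp5g3 encode the same mature c subunit with different import signals. Atp5g1 had signals of 635 and 162 (-1.97) and Atp5g2 had 1203 and 358 (-1.75), while Atp5g3 had 2891 and 3470 (0.26), each from 1 measured probe set. The 2 lower genes of the ring thus stood beside one that was slightly higher. None of the 5 genes of the head reached 2-fold at the brightest probe set. The catalytic beta subunit Atp5b had signals of 1950 and 1029 at its single probe set (-0.92), and the alpha subunit Atp5a1 had 1575 and 2085 (0.40) with -0.75 and 1.14 at further probe sets. Atp5c1, the central shaft, was higher at both probe sets (2399 and 3005 at the brightest, 0.32, and 0.50 at the other), Atp5d had 0.43 and -1.82, and Atp5e had -0.75.

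Among the 4 stalk subunits, Atp5o, which joins stalk and head, was lower at both probe sets, with signals of 796 and 255 at the brightest (-1.64) and a log2 ratio of -0.35 at the other. Atp5pb (2164 and 3420, 0.66, against 638 and 432, -0.56) and Atp5h (2665 and 4249, 0.67, against 1601 and 554, -1.53) had opposite signs, and Atp5j had 0.24. Of 5 small membrane subunits, Atp5l had signals of 982 and 320 at its single probe set (-1.62), Atp5mpl had -0.81 and Atp5md 0.12, and Atp5j2 (0.35 and -1.23) and Atp5k (0.15, -0.50 and 0.72) had probe sets on both sides of 0. Complex V had 4 of 17 subunits (23.5%) lower by 2-fold or more and none higher, beside 13.0% and 6.21% of all genes. Its median was 0.15 at the brightest and -0.75 over plain _at probe sets.

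Of the 13 subunits lower by 2-fold or more at the brightest probe set, 9 had 1 measured probe set, 3 were lower at every measured one (Sdhc, Cox8a and Atp5o), and Ndufs4 was mixed. All 3 subunits higher by 2-fold or more, Ndufa12, Ndufb11 and Uqcrc2, were mixed. The error of a log2 ratio could not be measured, and only the disagreement between probe sets of a gene could be described. Between the log2 ratios of the brightest and of the next probe set the difference had an SD of 1.17 over 39 subunits measured at both on both arrays. Over 2660 genes it was 0.91. The next one had the smaller log2 ratio in 28 of the 39 (71.8%) and in 68.0% of all. The median difference, next minus brightest, was -0.80 over the subunits and -0.36 over all genes, so the SD of the difference is not random error alone. That SD leaves out the spread between animals, pools and arrays. A subunit rested on a single value in 36 of 76 cases, so its ratio has no such check.

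Log2 ratios of the subunits also went with signal. Across the 72 subunits above the floor on both arrays, the Spearman correlation of log2 ratio with mean signal was 0.65, and with the control signal alone it was 0.39. Over all 7866 such genes the values were 0.24 and 0.01. These are descriptions across genes, which share the arrays and their scaling and are not replicates. Of 34 subunits with a control signal below 1000, 23 (67.6%) were lower and 10 lower by 2-fold or more. Of 38 at 1000 or more, 8 (21.1%) were lower and 2 lower by 2-fold or more. Over all genes the same split gave 55.9% lower of 7261 below 1000, with 936 lower by 2-fold or more. At 1000 or more 36.7% of 605 genes were lower, with 53 lower by that size. A split in the same direction was thus seen over the whole array, and it was wider among the subunits. The threshold of 1000 was set after the values were seen. Subunits were bright as a group, and 62 of the 72 lay in the brightest 20% of genes, where the median log2 ratio was 0.33 over all genes and 0.32 over subunits. By 2-fold or more 6 of these 62 were lower and 3 higher, where 6.23% and 7.31% of all genes in that 20% were. In the next 20% lay 7 subunits, with a median of -1.22 beside -0.01 for all genes. Of these 7, 4 were lower by 2-fold or more and none higher, where 11.8% and 7.57% of all genes in that 20% were. The length of the gene in the genome, introns included, had a Spearman correlation with the log2 ratio of 0.00 over 76 subunits and 0.23 over 8586 genes.

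**Figure D4:**
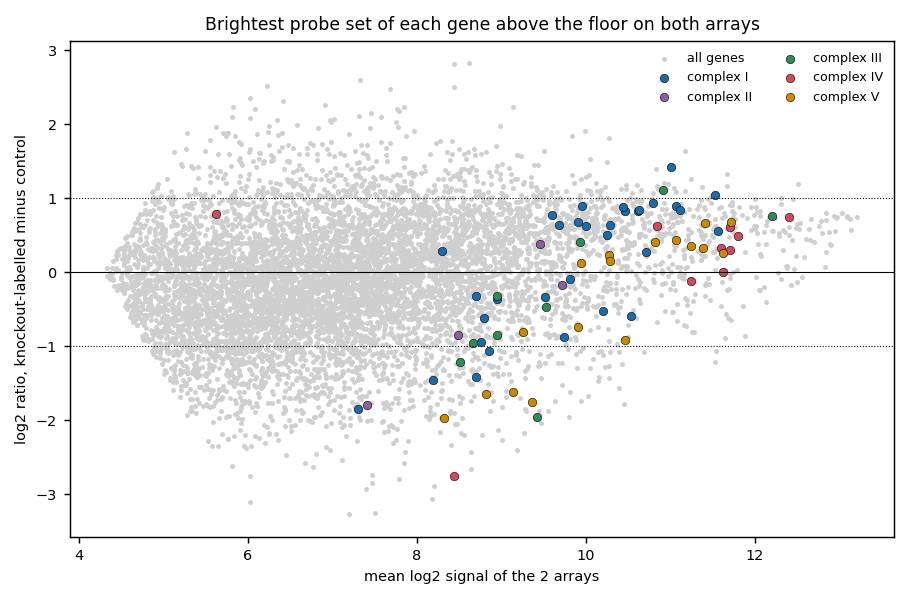
Log2 ratio (vertical axis, knockout-labelled minus control) against the mean log2 signal of both arrays at the brightest probe set of each gene; grey points are the 7866 genes above the floor on both arrays and coloured points the 72 subunits by complex, with dotted lines at 2-fold. Subunits lie to the right, and those with negative ratios are mostly at lower signal than those with positive ones.

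The upstream sequences of the subunits with the lowest ratios measured on both arrays, Cox8a, Atp5g1 and Uqcrh, are shown because HIF, Nrf1 and ETS factors bind short motifs near gene starts and Nrf1 and the ETS factor Gabpa are known regulators of respiratory genes. Each window runs 5' to 3' on the gene's strand from 250 bases before to 50 after the start, from RefSeq on GRCm38.p6, and each gene had 1 such window in the table. Capitals mark CCGGAAG (ETS core), ACGTG or GCGTG (hypoxia response element core) and GCATGCGC (Nrf1 core), searched on both strands, so that a capital run may be the reverse complement or hold overlapping matches. Cox8a lies at chr19:7217567-7217866 on the minus strand, Atp5g1 at chr11:96075582-96075881 on the minus strand and Uqcrh at chr4:116075021-116075320 on the minus strand.
Cox8a: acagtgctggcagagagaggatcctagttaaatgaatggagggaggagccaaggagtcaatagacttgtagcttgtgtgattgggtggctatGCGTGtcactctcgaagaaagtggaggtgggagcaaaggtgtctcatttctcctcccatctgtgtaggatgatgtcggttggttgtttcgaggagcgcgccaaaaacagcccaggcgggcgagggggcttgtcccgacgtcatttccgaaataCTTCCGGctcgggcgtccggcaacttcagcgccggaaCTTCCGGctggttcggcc
Atp5g1: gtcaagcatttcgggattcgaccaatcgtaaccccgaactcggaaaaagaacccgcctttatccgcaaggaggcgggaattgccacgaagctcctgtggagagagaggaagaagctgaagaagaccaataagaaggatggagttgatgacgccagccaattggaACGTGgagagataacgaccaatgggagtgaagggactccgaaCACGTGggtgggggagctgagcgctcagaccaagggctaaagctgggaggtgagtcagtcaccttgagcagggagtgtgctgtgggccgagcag
Uqcrh: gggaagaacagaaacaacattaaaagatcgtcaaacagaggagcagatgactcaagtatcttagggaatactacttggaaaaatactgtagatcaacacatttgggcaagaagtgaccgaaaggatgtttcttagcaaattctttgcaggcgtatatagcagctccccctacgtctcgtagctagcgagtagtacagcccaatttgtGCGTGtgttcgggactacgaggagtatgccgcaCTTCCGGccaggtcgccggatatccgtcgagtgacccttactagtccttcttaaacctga

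The Cox8a window held 2 ETS cores and 1 hypoxia core, that of Atp5g1 3 hypoxia cores, of which 2 overlap in a palindrome, and that of Uqcrh 1 ETS core and 1 hypoxia core. Windows were found for 64 of the 79 subunits. The hypoxia core was in 41 of these 64 (64.1%) and in 64.6% of 6965 genes compared on the arrays, or 43.8% of all 27025 genes in the table. The Nrf1 core was in 9 of 64 (14.1%), beside 5.71% and 2.80%, and the ETS core in 16 of 64 (25%), beside 19.0% and 9.12%. Of the 12 subunits lower by 2-fold or more that had a window, 7 held the hypoxia core, 4 the Nrf1 core and 4 the ETS core. A match to these letters is not a binding site.

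Assembly factors, which build the complexes without staying in them, were kept apart from the subunits. Of 32 compared, 8 (25%) were lower by 2-fold or more and 1 (3.13%) higher by 2-fold or more, 22 (68.8%) were lower by any amount, and the median log2 ratio was -0.36. Over all genes 13.0% were lower and 6.21% higher by that size, 55.3% were lower by any amount, and the median was -0.10. The 11 with the prefixes Ndufaf, Sdhaf and Uqcc held 3 lower by 2-fold or more and none higher. Among 9 for complex I, Ndufaf3 had the lowest ratio (78.2 and 38.2, -1.03) and Ndufaf4 the highest (186 and 288, 0.63, and 1.19 at a further probe set). For complex II, Sdhaf1, which serves the iron-sulphur subunit, had 90.3 and 37.6 (-1.26), and Sdhaf2 had 0.03 and -0.19. For complex III, Uqcc3 had 179 and 59.8 (-1.58), Uqcc1 had -0.82 and -0.52, Uqcc2 had -0.17 and 1.02, and Ttc19 had the highest ratio (0.47).

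The largest group of assembly factors was that of complex IV, with 5 of 12 (41.7%) lower by 2-fold or more, beside 13.0% of all genes, and 1 (8.33%) higher, beside 6.21%. Cox16 had the lowest ratio, with signals of 274 and 67.5 (-2.02), and Coa3, which stabilises the newly made catalytic subunit, had 669 and 178 (-1.91) with -2.91 at a further probe set. The copper chaperone Cox19 had 209.8 and 67.5 (-1.64), Sco2, which inserts copper, had 47.4 and 23.0 (-1.04), and Coa7 was at least 2.73-fold lower. Cox17, which delivers copper to other assembly factors, had the opposite sign, with 764 and 1637 (1.10). The 3 assembly factors of ATP synthase compared lay between -0.59 (Tmem70) and -0.02 (Oxa1l, with -1.68 at a further probe set).

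Genes around the chain were taken from lists of the pathway. Only 1 subunit encoded in mitochondrial DNA was compared, ND5 of complex I, with signals of 825 and 866 (0.07). Of 22 electron carriers and coupling proteins, 2 were lower by 2-fold or more (9.09%, all genes 13.0%) and none higher, with a median of 0.02. These were Etfb, which brings electrons from fatty acid oxidation (546 and 260, -1.07), and Coq10a, at least 2.36-fold lower. Cytochrome c, Cycs, had 1151 and 1810 (0.65), with -0.91 and 0.80 at further probe sets. Ndufab1, the acyl carrier protein that is also part of complex I but outside the symbol rule, had 753 and 797 (0.08), with 0.97 and 0.08 at further ones. Of 16 citrate cycle and pyruvate dehydrogenase genes, Idh2, the mitochondrial NADP-dependent isocitrate dehydrogenase, was lower by 2-fold or more (409 and 146, -1.48) and none was higher, with a median of 0.10.

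Of 15 regulators of mitochondrial gene expression compared, 2 (13.3%) were lower and 2 (13.3%) higher by 2-fold or more, beside 13.0% and 6.21% of all genes. Esrra, a nuclear receptor that drives respiratory genes, had 51.1 and 24.5 (-1.06), and the matrix protease Lonp1 had 139 and 66.5 (-1.06). Ppargc1b, a coactivator of Esrra, had 30.6 and 62.6 (1.03), and Ssbp1, which coats mitochondrial DNA, had 1032 and 2155 (1.06) with -0.83 at a further probe set. Ppargc1a was at the floor on both arrays. Among 8 HIF-linked genes of respiration, Hif1a was higher by 2-fold or more, as given above, and the iron-sulphur scaffold Iscu lower by that size (466 and 188, -1.31), while Pdk1 (138 and 216, 0.65) and the mitophagy receptor Bnip3 (279.6 and 287, 0.04) did not reach 2-fold.

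Other families of mitochondrial proteins are set beside the subunits without a test. At the brightest probe set, 22 of 74 mitochondrial ribosomal proteins (29.7%) were lower by 2-fold or more and 2 higher, with a median of -0.54, and 7 of 21 Timm and Tomm import proteins (33.3%) were lower by 2-fold or more and none higher, with a median of -0.25. Cytosolic ribosomal proteins, also bright, had 4 of 46 (8.70%) lower by 2-fold or more and 2 higher, with a median of 0.21. The plain _at probe set had the smaller log2 ratio in 12 of 16 mitochondrial ribosomal protein genes with both kinds, in 5 of 6 cytosolic ones and in 6 of 6 import genes.

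**Figure D5:**
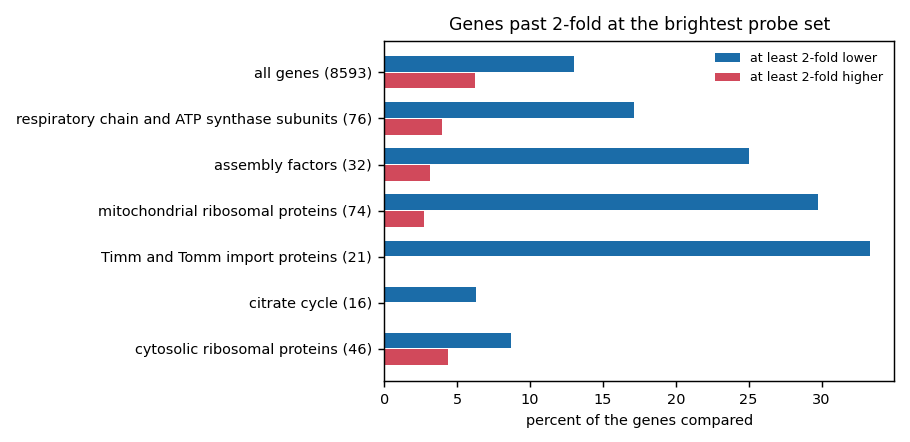
Percent of the genes compared (horizontal axis, from 0; numbers of genes in brackets) that were lower by 2-fold or more or higher by 2-fold or more on the knockout-labelled array at the brightest probe set. The subunits (17.1% lower, 3.95% higher) lie nearer to all genes (13.0% and 6.21%) than do mitochondrial ribosomal proteins (29.7% lower) and import proteins (33.3% lower).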

How the data were processed

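RNA of 2 pools of uterine stromal cells was measured on 2 arrays. The authors deposited linear intensities, with a single MAS5 signal for each probe set, and the submitters' processing notes name MAS5 and Affymetrix Expression Console version 1. The scaling target and detection calls were not used here. Each array has the same trimmed mean (150.1), so the authors' scaling was kept.

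Leaving control probe sets aside, 20380 of 22626 have 1 symbol in the platform annotation, with symbols updated through Entrez identifiers in a RefSeq table of GRCm38.p6. Signals were floored at the 40th percentile (19.7) before log2. Genes at the floor on both arrays (3800) were left out, and a gene at the floor on 1 array gives a bound. Tests were not possible with 1 array per group. Subunits, lists and alternatives were chosen with earlier results of these data known. Every subunit was named, with both signals for those past 2-fold, the highest, lowest and 3 brightest of each complex, and the isoforms. Alternatives were scaling, floor, size rule and the choice of probe set. Kinases with names that start like ribosomal proteins were left out of the ribosomal family. The planned comparison with protein length was not run, and gene length in the genome was used in its place. Python 3.11.15, numpy 2.4.6, pandas 2.3.3, scipy 1.17.1, statsmodels 0.14.6 and matplotlib 3.10.9 were used.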

Additional observations from a re-analysis of the deposited data

How the results depend on the processing

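Precision was limited by the number of arrays, 1 for each group. The 13 of 76 subunits at least 2-fold lower became 24 at 1.5-fold, where 26.4% of all genes were lower by that size. They became 9 at 3-fold, where 3.84% of all genes were lower by that size. Counted per probe set they became 32 of 135, where 13.9% of all probe sets were lower. They became 19 of 53 with plain _at probe sets only (all genes 15.1%). With the dimmest probe set of each gene they became 23 of 72 (all genes 16.8%). The 3 at least 2-fold higher became 16 after median centring of each array, 24 at 1.5-fold, 0 at 3-fold, 6 per probe set, 0 with plain _at probe sets only, 1 with the dimmest, and 0 among genes whose measured probe sets have 1 sign. All genes were higher in 18.5% at 1.5-fold, 1.23% at 3-fold and, per probe set, 6.84%. At 2-fold they were higher in 5.72% with plain _at probe sets, 5.27% with the dimmest and 6.01% with 1 sign. The dimmest, the 1 sign and the plain _at settings were added after the data were seen. The median of all genes (-0.10) became 0.03 when arrays were quantile normalized, 0.16 when they were centred on their medians and -0.01 with the loess trend taken out, and all genes at least 2-fold lower and higher were then 9.53% and 8.28%, 7.79% and 13.3%, and 9.92% and 7.61%.

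Medians over all subunits, where the value as deposited was 0.27, were 0.0324 (quantile), 0.54 (median centring), -0.0724 (loess), -0.17 (median over probe sets), -0.33 (without _s_at and _x_at), -0.81 (plain _at), -0.64 (dimmest) and -0.56 (1 sign). All genes, at -0.10, gave 0.03, 0.16, -0.01, -0.17, -0.20, -0.20, -0.25 and -0.23 in that order. In the same order complex I, at 0.50, gave 0.36, 0.78, 0.27, -0.14, -0.21, -0.95, -0.56 and -0.44. Complex III, at -0.47, gave -0.19 after median centring and -0.85 with 1 sign. Complex IV, at 0.49, gave 0.20 (quantile), 0.0691 (loess), 0.11 (median over probe sets), -0.30 (plain _at), -0.75 (dimmest) and 0.00045 (1 sign), and 0.34, 0.31 and 0.31 with the floor at the 25th percentile, at the 60th and with the pseudocount. Complex V, at 0.15, gave 0.43 (median centring), -0.0841 (loess), -0.44 (median over probe sets), -0.75 (without _s_at and _x_at, and also plain _at), -0.75 (dimmest) and -0.81 (1 sign). Complex II, at -0.51 over 4 genes, gave -0.23 (median centring), -0.31 (median over probe sets), -0.30 (dimmest) and -0.85 (1 sign). Among subunits past 2-fold, Ndufb11 turned to -1.79 with plain _at or the dimmest probe set, and Ndufa12 and Uqcrc2 to -0.27 and -0.0648 with the dimmest. The cause was not tested beyond the choice of probe set that each setting makes. The other floors, the pseudocount of 4.70 and the symbols of the platform annotation moved none of these counts by over 1.5 times.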
